A study of Mus musculus with 30 samples.

Results

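The genes described here encode serum response factor (Srf), its 2 myocardin-related partners Mkl1 (Mrtfa) and Mkl2 (Mrtfb), and its 3 ternary complex factor partners Elk1, Elk3 and Elk4. The 6 were chosen by name, as rows of the RNA tables and as gene names in the annotated site lists. All 6 were found, among 35973 genes in the table that compares blebbistatin with DMSO and 35972 in the table that compares Y27632 with DMSO. The site lists annotated 7 of 16367 sites to them.

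SRF is a MADS-box transcription factor that binds DNA as a dimer at the CArG box and is present in most cell types, and its partners set which of its targets are active. The myocardin-related factors (MRTFs) bind monomeric actin, which keeps them in the cytoplasm. When actin is drawn into filaments they are freed, enter the nucleus and bind SRF at genes of the cytoskeleton and of contraction. The ternary complex factors (TCFs) are ETS proteins that contact SRF and an ETS site beside the CArG box, and are switched on through phosphorylation by the ERK cascade at immediate early genes such as Fos and Egr1. In fibroblasts the MRTF branch is known for its part in stress fibres, adhesion and the response to mechanical load.

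RNA was measured in primary wildtype mouse fibroblasts from tail tendon, kept in medium with 0.1% serum and given the solvent DMSO, blebbistatin at 10 µM, which inhibits non-muscle myosin II, or Y27632 at 30 µM, which inhibits the kinases ROCK1 and ROCK2. Each group had 3 libraries, and 9 chromatin accessibility (ATAC) libraries covered the same 3 groups. A further 12 genomic DNA libraries, from cells also labelled wildtype and also kept in 0.1% serum, formed 4 groups of 3. The groups had neither drug, blebbistatin at 10 µM, doxycycline at 10 ng/mL, or both. The labels used here do not state what doxycycline induced, the exposure times, the age of the animals or whether replicates came from separate cultures or animals, so p-values measure only the spread between these libraries, which may be technical.

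The RNA libraries held 23375386 to 37061737 reads in genes. The 8 fibroblast markers summed to between 34549 and 36912 CPM (reads of a gene scaled to a common library size) in the 9 libraries. These markers, named after their values were seen, did not move together. With blebbistatin Pdgfra (log2 change 0.58) and Lum (0.45) were called higher and Col1a1 (-0.25), Col1a2 (-0.12) and Thy1 (-0.22) lower. With Y27632 Pdgfra (0.59), Lum (0.77) and Col3a1 (0.12) were called higher and Pdgfrb (-0.12) lower. The others did not pass. The tendon markers Tnmd and Scx averaged 34.1 and 2.41 CPM in DMSO. The sums over marker lists were scaled by the reads in genes alone, and the CPM of single genes also by the TMM factors of edgeR. The 4 epithelial, 4 skeletal muscle and 3 fat markers each averaged under 10 reads, with Myod1 and Ckm at 0. The 5 smooth muscle and pericyte markers, named after their values were seen, summed to 170 to 183 CPM in DMSO. They summed to 161 to 174 CPM with blebbistatin and 180 to 198 CPM with Y27632. With blebbistatin Smtn (log2 change -0.55) and Rgs5 (-0.52) were called lower and Cspg4 (0.23) higher. With Y27632 only Cspg4 was called (0.27). Myh11 passed with neither, and Des averaged under 10 reads. The 3 nerve support and 3 cartilage markers summed to at most 6.46 and 8.87 CPM. The 5 blood cell markers, all detected, summed to 60.0 to 67.7 CPM in DMSO, 90.6 to 104 CPM with blebbistatin and 83.6 to 98.1 CPM with Y27632. The 4 endothelial markers summed to 118 to 119, 78.5 to 88.5 and 106 to 111 CPM in the same order, nearly all of it Tek, with Pecam1 under 10 reads. Tek was called lower (log2 change -0.63 and -0.14), while Cdh5 (0.30 and 0.34) and Kdr (0.60 and 0.41) had positive log2 changes that did not pass. The part of these marker levels in the results was not tested, and in bulk RNA fewer cells of a type and less RNA per cell cannot be told apart.

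Srf is itself a known SRF target, so the DNA before its start is shown first. RefSeq windows (GRCm38.p6) of 300 bases around gene starts were searched on both strands for the CArG box, written as CC, 6 letters that are each A or T, and GG, and for an ETS core with its flank, CCGGAA, which can overlap its own reverse copy. Of the 6 genes, 1 had a CArG box, Srf, with 2 of them. Their first bases lay 82 and 62 bases before the start, and a CCGGAA began 122 bases before it. CArG boxes were in 1.63% of all 32851 windows and in 1.81% of 27025 genes counted over all their windows, and 0.278% of genes had both motifs. The start used here lies within the reference span of Srf, chr17:46546838-46558267, and no window at its upstream end was searched. The 250 bases before this Srf start, chr17:46556163-46556412 on the minus strand, are printed 5′ to 3′ with the motif matches in capitals.
Srf: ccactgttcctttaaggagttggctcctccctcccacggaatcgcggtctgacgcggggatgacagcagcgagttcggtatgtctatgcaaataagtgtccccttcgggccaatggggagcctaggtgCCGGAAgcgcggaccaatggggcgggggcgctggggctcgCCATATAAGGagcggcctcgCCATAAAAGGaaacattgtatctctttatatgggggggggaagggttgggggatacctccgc

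The ETS letters, which 14.9% of all windows and 16.7% of genes hold, were in 3 of the 6 genes. Besides Srf, they were before a start of Mkl2 and of Elk4. The Mkl2 and Elk4 matches are shown with 10 bases on either side because these are the other members with a match. The Mkl2 match was at chr16:13256345-13256350 on the plus strand and the Elk4 match at chr1:132007552-132007557 on the plus strand. In Mkl2 the match was to the reverse copy.
Mkl2: gttttaacttTTCCGGgtcaggggcg
Elk4: ggcccctcccCCGGAAgtgacgctcg
The windows of Mkl1, Elk1 and Elk3 held neither motif, which says only that these letters are not in those windows.

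Srf and Mkl1 RNA fell with both inhibitors, Mkl2 and Elk3 RNA rose with blebbistatin, and Elk1 and Elk4 passed the test against DMSO with neither inhibitor. Genes were tested with limma on log2(normalised count + 1) and called at a Benjamini-Hochberg adjusted p under 0.05. With blebbistatin 4 of the 6 were called, 2 higher and 2 lower, against a background of 53.0% of the 14882 genes tested (26.1% higher, 26.9% lower). With Y27632 3 of the 6 were called, all lower, against 35.9% of 14833 genes (18.1% higher, 17.8% lower). The treated and DMSO libraries did not overlap for 5 of the 6 with blebbistatin, 3 above and 2 below, against 60.2% of genes (30.0% above, 30.2% below), and for 3 of the 6 with Y27632, all below, against 48.1% (24.4% above, 23.7% below). All 6 passed the filter on low values, a mean of at least 10 normalised counts. These shares do not set the 6 genes apart from the background, and the results lie in the direction and size for each gene. The median log2 change over all genes tested was 0.00 in both comparisons.

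**Figure D1:**
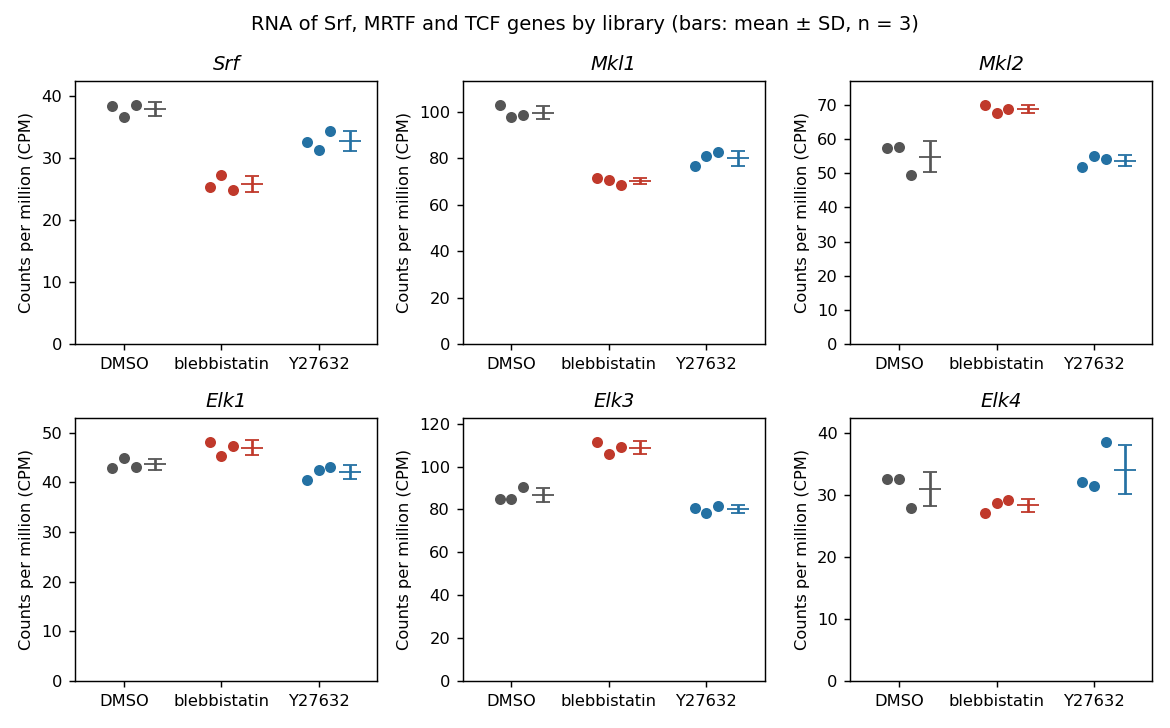
RNA level of each of the 6 genes in CPM (y axis, from 0) in the 3 DMSO, 3 blebbistatin and 3 Y27632 libraries (points), with the group mean and SD beside them. Srf and Mkl1 are highest in DMSO and lowest with blebbistatin, and Mkl2 and Elk3 are highest with blebbistatin (68.8 and 108.9 CPM).

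Srf encodes the shared DNA-binding subunit. Its normalised counts were 1019, 969 and 1020 in the DMSO libraries and 668, 719 and 655 with blebbistatin. All 3 treated libraries lay below all 3 controls, and the mean went from 1002 ± 29.4 to 680.8 ± 34.0 (SD, n = 3), a log2 change of -0.56 (SE 0.0526, limma adjusted p = 2.12e-06), so Srf RNA fell by 32.1%. In the Y27632 table, scaled separately, Srf had 1059, 1005 and 1060 normalised counts in DMSO and 900.5, 862 and 954 with Y27632. The groups again did not overlap, with a smaller log2 change of -0.20 (SE 0.0499, limma adjusted p = 0.00658), a mean that fell by 13.1%. In the authors' deposited table the adjusted p-values for Srf were 9.23E-13 with blebbistatin and 0.0145 with Y27632.

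Mkl1 encodes MRTF-A, the actin-binding coactivator. Normalised counts of Mkl1 were 2733, 2589 and 2613 in DMSO and 1887, 1867 and 1815 with blebbistatin, a log2 change of -0.51 (SE 0.0373, limma adjusted p = 2.07e-07). With Y27632 they went from 2842, 2688 and 2716 to 2115, 2240 and 2298, a log2 change of -0.31 (SE 0.0399, limma adjusted p = 6.01e-05). Every treated library lay below every control under both inhibitors. Srf and Mkl1 were thus called lower in both comparisons, as were 11.1% of the 14683 genes tested in both, and the comparisons share their DMSO libraries.

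Mkl2 encodes MRTF-B, the second MRTF, and its RNA did not follow that of Mkl1. Its normalised counts were 1520, 1530 and 1311 in DMSO and 1848, 1784 and 1816 with blebbistatin. All treated libraries were above all controls, with a log2 change of 0.32 (SE 0.0560, limma adjusted p = 3.70e-04). With Y27632 the counts of 1433, 1517 and 1508 lay within the spread of the DMSO values of 1580, 1588 and 1362, a log2 change of -0.02 (SE 0.0563, limma adjusted p = 0.810). The sign of that small change turned when 1 of 3 libraries was left out (DMSO 1, DMSO 2 or Y27632 1).

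Since Mkl1 and Mkl2 moved apart, the ratio of their reads within each library was taken, a measure that does not depend on scaling between libraries and that was chosen after the values were seen. The log2 ratio of Mkl1 to Mkl2 reads was 0.85, 0.76 and 0.996 in DMSO, 0.56, 0.56 and 0.61 with Y27632, and 0.03, 0.07 and -0.0015 with blebbistatin. The 3 groups did not overlap. The mean was 0.87 ± 0.120 (SD, n = 3) in DMSO, 0.58 ± 0.0260 with Y27632 and 0.03 ± 0.0336 with blebbistatin, so that reads of both genes were close to equal in number only in the blebbistatin libraries. Each of the 3 differences (-0.84 for blebbistatin and -0.29 for Y27632 against DMSO, -0.55 between the inhibitors) had an exact two-sided permutation p of 0.1, the smallest that 3 libraries against 3 can give. Reads were not divided by transcript length, so the ratio says nothing of which MRTF has more transcripts.

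**Figure D2:**
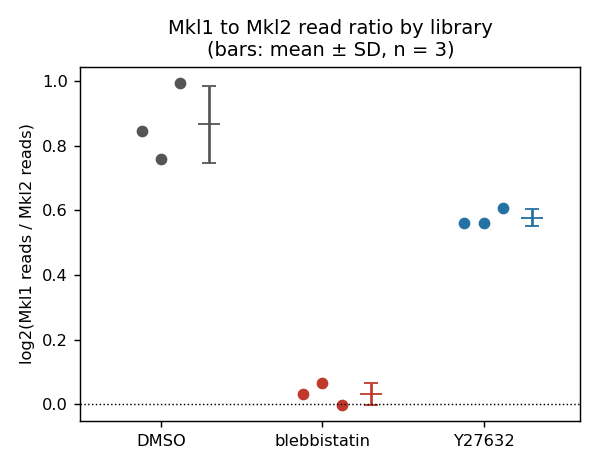
Log2 ratio of Mkl1 to Mkl2 reads (y axis) in each RNA library by group (points; bars, mean and SD). The 3 blebbistatin libraries lie near 0, the Y27632 libraries at 0.56 to 0.61 and the DMSO libraries at 0.76 to 0.996.

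Of the TCFs, Elk3 (Net), which can act as a repressor of SRF targets, was the one that passed the test against DMSO. Its normalised counts were 2255, 2250 and 2394 in DMSO and 2950, 2794 and 2886 with blebbistatin, all treated libraries above all controls. The log2 change was 0.32 (SE 0.0387, limma adjusted p = 1.76e-05). With Y27632 the counts were 2229, 2164 and 2274 against 2344, 2336 and 2488, all treated libraries below all controls. That log2 change of -0.10 (SE 0.0381) passed the test narrowly (limma adjusted p = 0.0478) and did not pass when any 1 of the 6 libraries was left out (limma adjusted p = 0.0554 to 0.169) or in the authors' deposited table (0.110). Elk3 was called higher with blebbistatin and lower with Y27632, a combination found in 1.74% of the genes tested in both.

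Elk1, an activator at immediate early genes once phosphorylated, had normalised counts of 1137, 1192 and 1141 in DMSO and 1275, 1200 and 1251 with blebbistatin. The groups did not overlap, yet the log2 change of 0.10 (SE 0.0440) did not pass (limma adjusted p = 0.0686). Without blebbistatin replicate 2 it did (log2 change 0.13, limma adjusted p = 0.0436). With Y27632 the counts of Elk1 were 1117, 1174 and 1199 against 1182, 1238 and 1185, overlapping groups with a log2 change of -0.05 (limma adjusted p = 0.438).

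Elk4 (SAP-1), the third TCF, had the least regular values among replicates. Its normalised counts were 867, 863 and 738 in DMSO and 718, 758 and 770 with blebbistatin, overlapping groups with a log2 change of -0.13 (SE 0.0660, limma adjusted p = 0.113). DMSO replicate 3 decided that call, since without it the log2 change was -0.21 (limma adjusted p = 0.00940). With Y27632 the counts were 888.5, 869.6 and 1073 against 901, 895.5 and 766, a log2 change of 0.14 (SE 0.0810, limma adjusted p = 0.198). Here 1 library of each group, DMSO 3 low and Y27632 3 high, stood apart from the other pair.

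**Figure D3:**
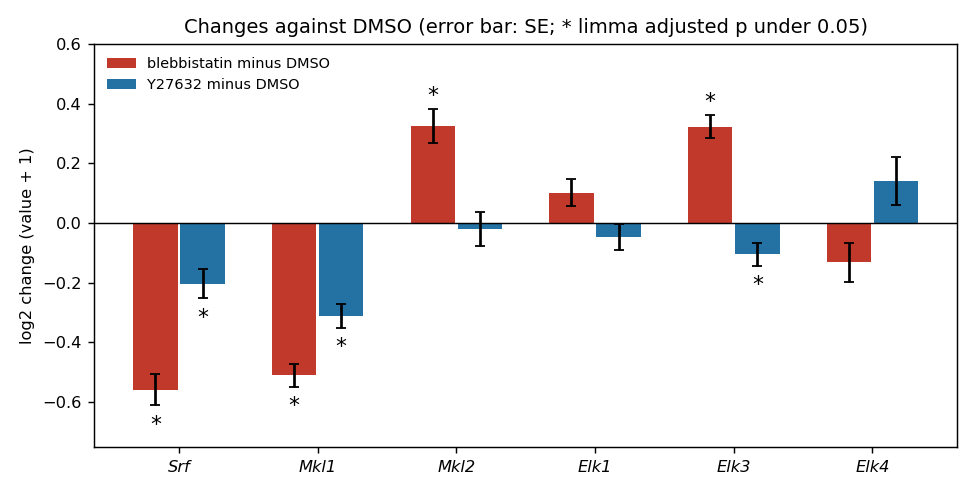
Log2 change against DMSO (y axis, on log2(normalised count + 1)) for each gene with blebbistatin (red) and Y27632 (blue). Error bars are the SE and asterisks mark a limma adjusted p under 0.05. Srf and Mkl1 have negative bars under both inhibitors, and Mkl2, Elk1, Elk3 and Elk4 have bars of opposite sign under the 2 inhibitors.

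The inhibitors were compared with each other on whole reads recovered from the tables, with 1 scaling over the 9 libraries (edgeR quasi-likelihood test, Benjamini-Hochberg adjusted p). All 6 genes differed, 3 of them higher and 3 lower in the blebbistatin libraries, against a background of 53.1% of 14955 genes (26.9% higher, 26.2% lower). For all 6 the libraries of the inhibitors did not overlap, 3 above and 3 below, against 60.5% of genes (30.6% above, 29.9% below). Elk3 was higher with blebbistatin, at 108.9 ± 2.99 CPM against 80.3 ± 1.76 with Y27632 (SD, n = 3), a log2 difference of 0.44 (edgeR adjusted p = 2.04e-07). Mkl2 stood at 68.8 ± 1.21 against 53.7 ± 1.60 CPM, a log2 difference of 0.36 (edgeR adjusted p = 4.51e-05). Elk1, which passed in neither comparison with DMSO, stood at 47.0 ± 1.46 against 42.0 ± 1.41 CPM, a log2 difference of 0.16 (edgeR adjusted p = 0.00579).

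Srf, Mkl1 and Elk4 were lower with blebbistatin than with Y27632. Srf had 25.8 ± 1.27 against 32.7 ± 1.57 CPM (SD, n = 3), a log2 difference of -0.34 (edgeR adjusted p = 7.86e-05), so that its fall was larger with blebbistatin. Mkl1 had 70.3 ± 1.37 against 80.1 ± 3.18 CPM, a log2 difference of -0.19 (edgeR adjusted p = 8.78e-04). Elk4 had 28.3 ± 1.05 against 34.1 ± 3.94 CPM, a log2 difference of -0.26 (edgeR adjusted p = 0.0111), which did not pass when Y27632 replicate 3 was left out (-0.17, edgeR adjusted p = 0.0571).

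The order of levels across the 3 groups followed from these tests. Srf (37.8 ± 1.12 CPM in DMSO, SD, n = 3) and Mkl1 (99.8 ± 2.87 CPM) ran from DMSO through Y27632 to blebbistatin, and every neighbour in that order differed. Mkl2 was highest with blebbistatin, and DMSO (54.8 ± 4.63 CPM) and Y27632 did not differ beyond their spread. Elk3 ran from blebbistatin through DMSO (86.7 ± 3.15 CPM) to Y27632, where the lower step was the narrow call above. For Elk1 (43.6 ± 1.17 CPM in DMSO) and Elk4 (31.0 ± 2.75 CPM in DMSO) the DMSO level lay between those of the inhibitors and differed from neither by the test.

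Over the 9 libraries, log2(CPM + 1) of Srf correlated with Mkl1 at r = 0.94 (Pearson) and with Mkl2 and Elk3 at -0.84 and -0.77. Mkl2, Elk1 and Elk3 correlated with one another at 0.86 to 0.88. These are descriptions over libraries that fall into 3 treatment groups and share their depth scaling. Among 11465 genes with a mean of at least 100 reads, the patterns most like Srf were those of Tsc22d2 and Dazap1 (both r = 0.989) and Adipor1 (r = 0.988). The nearest to Mkl1 were Cryab, a small heat shock protein (r = 0.996), and Apobr (r = 0.993). The nearest to Mkl2 were Efna1, an ephrin ligand (r = 0.986), and Crat (r = 0.981), and to Elk1 Mapk13, a p38 kinase (r = 0.964), and D6Wsu163e (r = 0.956). For Elk3 they were Slc16a10, an amino acid transporter (r = 0.998), and Eci2 (r = 0.994), and for Elk4 Phf2 (r = 0.968) and Usb1 (r = 0.956).

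Other SRF cofactors and MADS-box relatives were counted next. Of 10 such genes 7 were tested. With blebbistatin 3 were called higher and 2 lower (median log2 change -0.02), and with Y27632 2 higher and 3 lower (median -0.05), against 53.0% and 35.9% of all genes called in either direction. Myocd, the founding myocardin and the heart and smooth muscle coactivator, had at most 3 reads in any library and was not tested. Fhl2, a LIM protein that binds SRF and is also an MRTF target, fell with blebbistatin from 2213, 2251 and 2342 to 526, 576 and 514.5 normalised counts (log2 change -2.07, SE 0.0517, limma adjusted p = 2.07e-11), and by less with Y27632 (log2 change -0.74, limma adjusted p = 1.41e-07). Mef2c, a MADS-box factor of muscle, rose with blebbistatin (log2 change 0.75, limma adjusted p = 9.98e-06). With Y27632 its log2 change was -0.27 (limma adjusted p = 0.0201), a call that did not pass without DMSO 2 (-0.23, 0.0809), DMSO 3 (-0.21, 0.0776) or Y27632 3 (-0.23, 0.0752).

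Mef2d rose with both inhibitors (log2 change 0.18 and 0.14), as did Mef2a (0.16 and 0.18). Fhl1 was called lower with both. Its log2 change was -0.11 with blebbistatin, where the limma adjusted p of 0.0198 became 0.0528 without DMSO 1, 0.0580 without DMSO 2 and 0.0884 without blebbistatin 1, and -0.21 with Y27632. Scai, a suppressor of MRTF, had log2 changes of -0.02 (limma adjusted p = 0.808) and -0.05 (limma adjusted p = 0.598), and both signs turned without DMSO replicate 2 (0.06 and 0.03).

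The route to the MRTFs, 15 genes of actin turnover and the signalling above it, was counted against the shares over all genes given above (26.9% lower and 26.1% higher with blebbistatin, 17.8% and 18.1% with Y27632). Of these genes 12 were called lower and 1 higher (Rhoc, named after its value was seen) with blebbistatin (median log2 change -0.30), and 6 lower and 2 higher (Rhob and Rhoc) with Y27632 (median -0.06). Rock2, which encodes a kinase that Y27632 inhibits, fell most with blebbistatin (log2 change -1.79, SE 0.0334, limma adjusted p = 2.61e-12). It stood at 824 to 857 CPM in DMSO, 237 to 252 CPM with blebbistatin and 635 to 653.5 CPM with Y27632, where its log2 change was -0.37 (limma adjusted p = 9.04e-07). Rhob, an early-response small GTPase, fell with blebbistatin (log2 change -0.80, limma adjusted p = 3.05e-08) and rose with Y27632 (0.60, limma adjusted p = 8.62e-08). Rhoa fell with blebbistatin (log2 change -0.31, limma adjusted p = 9.79e-06) and had a log2 change of 0.06 with Y27632 (limma adjusted p = 0.138). The actin genes Actb (log2 change -0.78 and -0.46) and Actg1 (-0.70 and -0.86) fell with both, although both have near-identical copies among which reads can be split. Actb and Actg1 are also among the MRTF-type targets counted below, so those counts share them.

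The route to the TCFs, 13 genes of the ERK cascade, held calls in both directions under each inhibitor. With blebbistatin 8 were called lower and 2 higher (Mapk3 and Rps6ka1; median log2 change -0.12), and with Y27632 4 lower and 3 higher (Nras and Mapk3 among them; median -0.06). Over all genes 26.9% were lower and 26.1% higher with blebbistatin, and 17.8% and 18.1% with Y27632. Rps6ka1 and Nras are named after their values were seen. Map2k1 (MEK1) fell with both (log2 change -0.50 and -0.21), as did Rps6ka3, an ERK-activated kinase (-0.46 and -0.20). Mapk3 (ERK1) rose with both (0.36 and 0.15). Map2k2 (MEK2) had log2 changes of -0.03 with blebbistatin (limma adjusted p = 0.513) and -0.22 with Y27632 (limma adjusted p = 3.13e-04), and differed between the inhibitors by 0.20 (edgeR adjusted p = 2.58e-04). Rps6ka2 was called lower with Y27632 (-0.21, limma adjusted p = 0.00994). These are RNA levels and carry no information on phosphorylation.

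Most genes usually named as MRTF targets were called lower with each inhibitor, and most usually named as TCF targets were called higher. Of 22 MRTF-type targets 21 were tested (Tagln was under the filter). With blebbistatin 16 were called lower and 1 higher, against 26.9% and 26.1% of all genes, with a median log2 change of -0.78. With Y27632 16 were called lower and 1 higher, against 17.8% and 18.1%, with a median of -0.46. The 1 higher gene was Lima1 in both, named after its value was seen, and its blebbistatin call (log2 change 0.09, limma adjusted p = 0.0330) did not pass without DMSO 1, DMSO 3, blebbistatin 2 or blebbistatin 3. Of 10 TCF-type targets 8 were called higher and none lower with blebbistatin (median log2 change 0.38), and 9 higher and none lower with Y27632 (median 1.67). The counts are descriptions, as the lists were chosen with earlier results of these data known. A place in a list does not show through which factor a gene changed, and that was not tested.

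Among MRTF-type targets, the largest falls with blebbistatin after Fhl2 were those of the matricellular genes Cyr61 (log2 change -2.01) and Ctgf (-1.60) and of the calponin Cnn2 (-1.41). Cyr61 stood at 373 to 413 CPM in DMSO, 88.8 to 107 CPM with blebbistatin and 341 to 380 CPM with Y27632, so that only the blebbistatin libraries stood apart. With Y27632 the log2 change of Cyr61 was -0.13 (limma adjusted p = 0.0372), a call lost when DMSO 2, DMSO 3, Y27632 1 or Y27632 2 was left out (0.0709 to 0.162), and that of Ctgf was -0.11 (limma adjusted p = 0.267). With Y27632 the largest falls were those of Myl9, a myosin light chain (log2 change -1.50, against -1.37 with blebbistatin), and Cnn2 (-1.01). Smooth muscle actin Acta2 fell with both (-0.97 and -0.77), and so did vinculin, Vcl (-1.03 and -0.55).

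Most TCF-type targets were higher with Y27632 than with blebbistatin. Egr1, a zinc finger immediate early factor, had 25.1 to 36.5 CPM in DMSO, 88.2 to 131 CPM with blebbistatin and 164 to 192 CPM with Y27632, log2 changes of 1.78 and 2.52 (limma adjusted p = 3.38e-07 and 2.99e-09). Egr3 had log2 changes of 1.35 and 2.77, Egr2 of 1.02 and 2.50 and Junb of 0.50 and 1.65, all called. Fos rose with both (0.44, limma adjusted p = 0.00786, and 1.70, limma adjusted p = 7.74e-08). Nr4a1 rose with Y27632 (2.83, limma adjusted p = 7.43e-10) and had a log2 change of 0.20 with blebbistatin (limma adjusted p = 0.158), a call that passed without blebbistatin 1 (0.35, 0.0101). Between the inhibitors 8 of the 10 were lower with blebbistatin (edgeR), with a median log2 difference of -1.04, against 26.2% of all genes. Fosb passed against DMSO with neither inhibitor (log2 change 0.12, limma adjusted p = 0.535, and -0.24, limma adjusted p = 0.251). It was the 1 gene called higher with blebbistatin than with Y27632 (log2 difference 0.37, edgeR adjusted p = 0.0472), named after its value was seen, a call lost when any 1 of 6 libraries (DMSO 2, blebbistatin 1, 2 or 3, Y27632 2 or 3) was left out. Egr1 is also 1 of the 6 tendon markers, which summed to 1228 to 1278 CPM in DMSO, 1279 to 1413 CPM with blebbistatin and 1548 to 1578 CPM with Y27632. The markers, named after their values were seen, did not move together. With blebbistatin Egr1, Fmod (log2 change 0.25) and Mkx (0.13) were called higher and Tnmd lower (-0.24, limma adjusted p = 0.0181). Thbs4 (-0.10) and Scx (-0.0031) did not pass. With Y27632 Egr1, Fmod (0.66), Mkx (0.25) and Thbs4 (0.13) were called higher, and Tnmd (0.15) and Scx (0.29) did not pass.

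**Figure D4:**
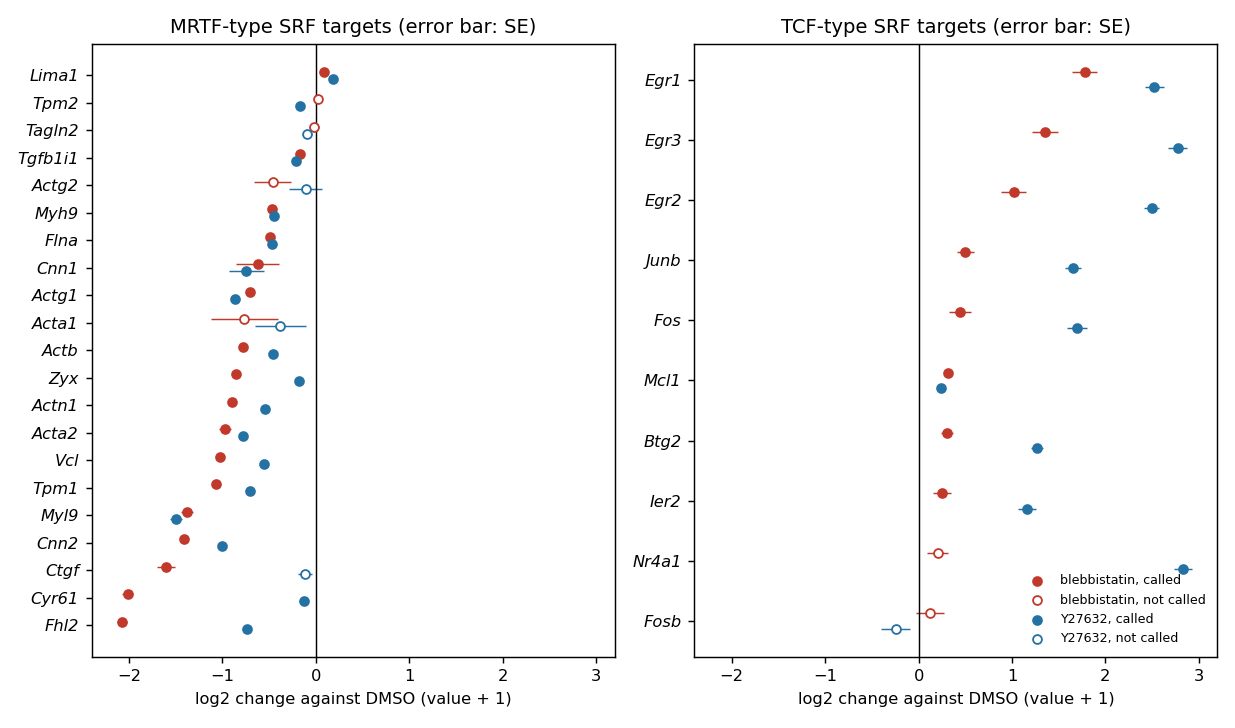
Log2 change against DMSO (x axis, on log2(normalised count + 1)) of each tested MRTF-type target (left) and TCF-type target (right) with blebbistatin (red) and Y27632 (blue). Filled points passed the limma test, open points did not, and bars are the SE. Most MRTF-type targets lie below 0 under both inhibitors (medians -0.78 and -0.46), and most TCF-type targets lie above 0 (medians 0.38 and 1.67).

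Windows were at hand for 17 of the 22 MRTF-type genes and 7 of the 10 TCF-type genes, and the rest were not searched. CArG boxes were in the windows of 7 of the 17 (41.2%) and of 1 of the 7 (14.3%), against 1.81% of all genes. The ETS letters were in 0 of the 17 and in 3 of the 7 (42.9%), against 16.7%. These genes were picked as known SRF targets, so the CArG share describes the lists. Lima1, called higher with both inhibitors, has a box too. Boxes of 4 MRTF-type targets that fell with both inhibitors and that of Lima1 are shown with 10 bases on either side and the box in capitals. They lie at chr1:43163983-43163992 and chr1:43196848-43196857 (Fhl2, at different starts, minus strand), chr10:79988544-79988553 (Cnn2, plus strand), chr2:156775303-156775312 (Myl9, plus strand), chr14:20929171-20929180 (Vcl, plus strand) and chr15:99820187-99820196 (Lima1, minus strand).
Fhl2: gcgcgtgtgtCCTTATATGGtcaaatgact
Fhl2, other start: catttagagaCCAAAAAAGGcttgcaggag
Cnn2: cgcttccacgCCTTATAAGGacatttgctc
Myl9: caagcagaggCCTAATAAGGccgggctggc
Vcl: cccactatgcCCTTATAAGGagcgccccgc
Lima1: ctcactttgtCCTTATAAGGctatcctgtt

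Accessibility at the genes was described from the authors' deposited lists of changed sites, which give group means and an FDR with no values per library, so no test of sites was made here. All 7 annotated sites lost signal with blebbistatin, and none lay in a promoter by the authors' annotation. In the ATAC comparison of blebbistatin with DMSO 1 site was annotated to a member. It lay at chr10:93287773-93288051 (mm10) in intron 1 of 4 of Elk3, 23247 bp from the start, and within the span of the lncRNA gene Gm32551. The mean log2 signal in the authors' deposited table was 7.14 in DMSO and 5.64 with blebbistatin, a log2 fold of -1.50 (FDR 0.0207), while Elk3 RNA rose. That list held 970 sites, about 1.54% of the sites tested, of which 98.2% were lower. At an FDR of at most 0.01 no member site was left in it.

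The same list carries the authors' scan for a TEAD motif, the binding motif of the partners of YAP and TAZ. At least 1 match was listed for 62.2% of the 970 sites. The Elk3 site had 1, on the minus strand, 134 bp from the reference point of the scan, shown here as the table gives it with the core in capitals.
Elk3 site: acaCATTCCt

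The other 6 sites came from the comparison of doxycycline with blebbistatin against doxycycline alone, a list of 6346 sites (8.75% of those tested, 99.8% of them lower). In the authors' deposited table the Mkl1 site at chr15:81070555-81070815, in intron 2 of 13, went from a mean log2 signal of 7.82 to 6.73 (log2 fold -1.09, FDR 8.54e-10). The Elk4 site at chr1:132006097-132006393, 1360 bp before the start, went from 7.66 to 6.62 (log2 fold -1.04, FDR 3.12e-08). Mkl2 had 4 sites. In the authors' deposited table those at chr16:13208191-13208395 and chr16:13240295-13240627 were intergenic, 48188 and 16020 bp before the start, with log2 folds of -1.01 and -1.31. Those at chr16:13334001-13334203 (intron 3 of 16) and chr16:13381815-13382097 (intron 6 of 16) went from 5.99 to 4.71 and from 6.72 to 5.71. The FDR of the 4 Mkl2 sites ranged from 5.36e-10 to 1.13e-04 in the authors' deposited table.

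No site of Srf or Elk1 was in any of the 5 lists. The lists for Y27632 (207 sites, 0.335% of those tested), for doxycycline alone (7613 sites, 9.36%) and for blebbistatin without doxycycline (1231 sites, 1.78%) held no member site, and 0 member sites overlapped between lists by at least 1 bp. Absence from a list says that a site did not pass the authors' limits, not that it did not change. Outside the annotation rule, and named after their values were seen, 7 further entries of the authors' deposited tables lay within 50 kb of Srf, Mkl1, Elk3 or Elk4. All 7 were annotated to other genes. They are not 7 separate sites. The entries near Elk3 were the same site in different lists, chr10:93212807-93213075, and those near Elk4 overlapped each other. With doxycycline alone 4 entries were higher (log2 fold 1.22 near Srf, 1.44 near Mkl1, 1.12 near Elk3 and 1.49 near Elk4). The other 3 were lower in the authors' deposited tables, 1 near Elk4 in the ATAC blebbistatin list (log2 fold -1.41, FDR 0.0404) and 1 each near Elk3 (-1.16) and Mkl1 (-1.13) with blebbistatin and doxycycline. The Mkl1 entry was the nearest of the 7 to a member, at chr15:81192423-81192654, 1687 bp before the start. RNA was not measured with doxycycline here, so sites from the lists with doxycycline have no RNA value to stand beside. For the ATAC entry near Elk4, Elk4 RNA had a log2 change of -0.13 with blebbistatin (limma adjusted p = 0.113).

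**Figure D5:**
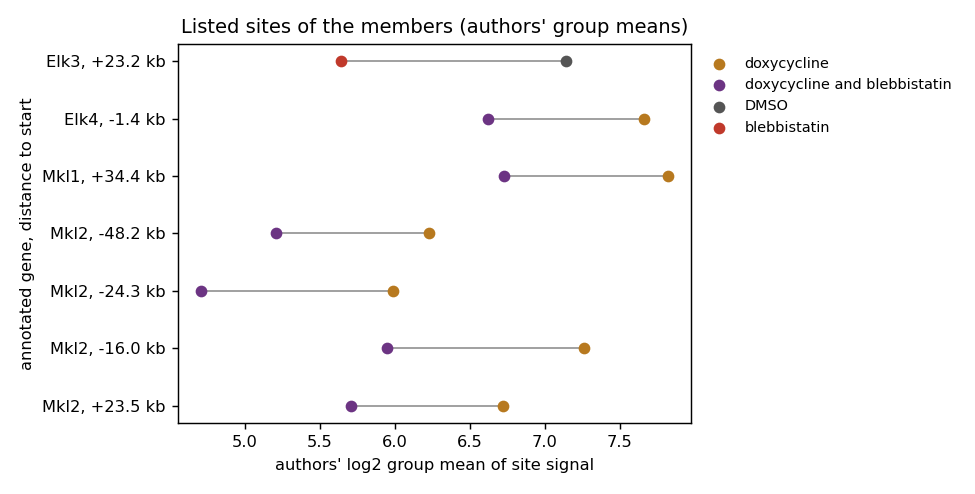
Authors' mean log2 signal (x axis) at the 7 sites annotated to member genes, in the reference group and the blebbistatin-treated group of each list (points joined by a line; the Elk3 site is from the ATAC list, the other 6 from the doxycycline list). Every site is lower with blebbistatin, the Elk3 site by the most (7.14 to 5.64).

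Sites of the target lists were counted in the same way from the authors' deposited tables. MRTF-type targets had 7 sites in the ATAC blebbistatin list, 5 in the Y27632 list, 16 with blebbistatin without doxycycline and 11 with blebbistatin and doxycycline, all lower, and 14 with doxycycline alone, all higher. TCF-type targets had 0, 0, 1 and 4 sites in the same order, all lower, and 10 with doxycycline alone, all higher. Most sites of those lists moved the same way, with 98.2%, 85.0%, 99.0% and 99.8% of all sites lower in the 4 inhibitor lists and 4.15% lower with doxycycline alone.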

How the data were processed

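RNA tables were deposited by the authors as a signal per gene and library that is a count divided by a size factor, separately in the 2 tables, worked out from the values: 100% of values above 0 were whole multiples of 1 step within a tolerance of 0.001. The DMSO reads were the same in both tables (0 differing over 35972 shared genes). Sample columns without a label numbered 0. The tools named in the submitters' processing notes were HISAT2, Picard, featureCounts, DESeq2, Bowtie2, SAMtools, MACS2, DiffBind and HOMER, with mm10, and the use of strand in counting is not given in the sources used here. Reads of genes that overlap a member (Mir6976 with Srf, Sgsm3 and Gm25131 with Mkl1, Gm15738 and LOC115488652 with Mkl2, Cdk17 and Gm32551 with Elk3, Mfsd4a with Elk4) may not be separable.

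Deposited site lists give log2 group means, a log2 fold, a p-value and an FDR by the authors, per the file headers, at an FDR of at most 0.05. The 3 doxycycline lists keep an absolute log2 fold of at least 1. Sites are linked to genes by the authors' annotation, and the number of sites tested was estimated from the FDR, rank and p-value.

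The test took genes whose 6 libraries averaged 10 or more normalised counts. It was run with limma 3.58.1 (trend, R 4.3.3) on log2(value + 1), which understates changes of low genes. Inhibitors were compared with edgeR 4.0.16 (quasi-likelihood, TMM) on recovered reads of 9 libraries. CPM of single genes are TMM-scaled, and summed CPM of marker lists are divided by the reads in genes without that scaling. The limma and edgeR p-values are two-sided and Benjamini-Hochberg adjusted over all genes tested, and the permutation p-values of the Mkl1 to Mkl2 ratio are unadjusted. The members and gene lists were chosen with earlier results of these data known. Named list genes are up to 4 called genes per list and inhibitor with the largest log2 changes, plus Myocd, Acta2, Vcl, Actb, Fos, Egr1, Rhoa and Scai. A gene that meets this rule is not reported here. Where another gene is named, the text says that its value was known by then. Patterns most like a member are the 3 highest Pearson r for Srf and 2 for each other gene. Alternatives were DESeq2 1.42.0, other filters, a replicate block and leaving out each library.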

Additional observations from a re-analysis of the deposited data

Results flagged for a closer look

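For 4 genes the log2 changes against DMSO had opposite signs under blebbistatin and Y27632, and the difference between the inhibitors was called in the edgeR test on 9 libraries. The log2 difference, blebbistatin minus Y27632, was 0.44 for Elk3 (adjusted p = 2.04e-07), 0.36 for Mkl2 (adjusted p = 4.51e-05), 0.16 for Elk1 (adjusted p = 0.00579) and -0.26 for Elk4 (adjusted p = 0.0111). For Elk1 and Elk4 neither change against DMSO passed the limma test, and for Mkl2 the Y27632 change did not pass. That Mkl2 change turned its sign in 3 of 14 alternative settings. The Elk3 call with Y27632 was narrow (limma adjusted p = 0.0478) and was lost in 9 of 14 alternative settings. The Elk4 difference did not pass without Y27632 replicate 3 (-0.17, adjusted p = 0.0571).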

How the results depend on the processing

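Srf and Mkl1 (both comparisons with DMSO), Mkl2 and Elk3 (blebbistatin), and the difference between inhibitors of all members but Elk4 kept their direction and call under every alternative run. Signs turned for Mkl2 with Y27632 (-0.093 to 0.018 when 1 library was left out), Scai with blebbistatin (-0.091 to 0.057) and with Y27632 (-0.12 to 0.030), and Mef2a between the inhibitors (-0.039 to 0.0059), and the cause was not tested. At an FDR of at most 0.01 the number of member sites in the ATAC blebbistatin list was 0 in place of 1, since its FDR is 0.0207. The Elk3 call with Y27632 was also lost without a filter (adjusted p = 0.0728) and with DESeq2 (0.0988), and the Fhl1 call with blebbistatin with DESeq2 (0.0522). Genes called went from 7894 to 6837 with DESeq2 under blebbistatin, from 5328 to 4263 under Y27632 and from 7935 to 7068 between the inhibitors.

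Same-numbered libraries of different groups had deviations that correlated at -0.217 to 0.0682, and 3 of 18 best matches had the library's own number. These values show no pairing by number. Deviations from means of 3 libraries cannot settle whether same-numbered libraries share a culture or animal, which the labels do not state. With the replicate number as a block, 7604, 4633 and 7700 genes were called, and Elk3 with Y27632 had an adjusted p of 0.0662. The ratio of Mkl1 to Mkl2 reads, an alternative added after seeing the data, stayed between -0.89 and -0.77 for blebbistatin and between -0.34 and -0.23 for Y27632 when 1 library was left out.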
